A study of Homo sapiens with 8 samples.

Results

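H3K27me3 islands on chromosomes 14 and 15 were examined in 2 human B-cell lymphoma lines, to describe which islands of the line with wild-type EZH2 were also found in the line with mutant EZH2. Islands of both deposited lists on these chromosomes were taken on genome build hg19. The parts of chromosome 14 from 22.09 to 23.03 Mb and from 106.03 to 107.29 Mb, which hold antigen receptor loci, were left out. This gave 1115 LY19Y646F islands and 3482 LY19WT islands, 4597 of the 105576 islands in both lists. A LY19WT island was called kept where a LY19Y646F island overlapped it by at least 1 bp, and unmatched otherwise. By this rule 634 LY19WT islands were kept and 2848 were unmatched. The kept islands were thus chosen by the measured overlap of the lists, and the chromosomes were picked because LY19Y646F had few islands there. The values below therefore describe the islands and carry no test.

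LY19Y646F constitutively expressed EZH2-Y646F from a CMV promoter, and LY19WT had wild-type EZH2. Both were untreated immortalized cell lines between passages 10 and 15, with 3 H3K27me3 ChIP replicates and 1 input library each. The replicates of a line had been merged before islands were called, so each line is 1 list with no spread between replicates. Whether the islands would recur in another culture of either line was not tested.

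Polycomb repressive complex 2 adds methyl groups to lysine 27 of histone H3 through its catalytic subunit EZH2, and the trimethylated form, H3K27me3, marks silenced genes. The mark can lie over a single promoter or spread as a broad domain across many kilobases. Substitutions of the tyrosine altered in EZH2-Y646F, in the catalytic SET domain, recur in germinal-centre B-cell lymphomas and are known to favour the step from the dimethylated to the trimethylated form. Chromosomes 14 and 15 are acrocentric, with almost all their unique sequence in the long arm. Genes that Polycomb silences in many differentiated cell types lie on both, among them NKX2-1, a regulator of thyroid and lung development, on chromosome 14. MEIS2 and NR2F2, regulators of limb, heart and vascular development, lie on chromosome 15. Which genes lie at the islands below was not analysed here, because the gene positions at hand were on another genome build (GRCh38.p14). The islands are therefore named by position, and no sequence is shown.

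The read count behind an island of these chromosomes was modest in LY19Y646F and larger in LY19WT. Islands of chromosomes 14 and 15 held 246607 ChIP and 41554 input reads in LY19Y646F, against 2110476 and 268568 in LY19WT. These totals were summed over 6.27 Mb of islands in LY19Y646F and 31.9 Mb in LY19WT. The median island held 194 ChIP and 34 input reads in LY19Y646F, and 324 ChIP and 48 input reads in LY19WT. On the other autosomes it held 239 ChIP and 50 input reads in LY19Y646F, and 327 and 49 in LY19WT. Densities below are raw reads per kb of island, not scaled for the depth of a library, so levels are compared between the lines only beside the same ratio on the other autosomes.

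Few of the LY19WT islands on these chromosomes were kept, and kept islands were covered only in part. The kept share was 18.2% (exact binomial 95% interval 16.9% to 19.5%, which covers counting error only). It was 39.1% over all 58144 LY19WT islands and 40.7% over the 54338 islands of the other autosomes. On chromosome 14, 276 of 1589 islands were kept (17.4%), and on chromosome 15, 358 of 1893 (18.9%). Of the 22 autosomes only chromosome 4 was lower, at 6.19%, and the highest share was 78.6% on chromosome 20. Total covered length was 6.27 Mb in LY19Y646F and 31.9 Mb in LY19WT, and 3.57 Mb was covered in both. The shared length was 57.0% of the LY19Y646F length and 11.2% of the LY19WT length, against 48.0% and 34.7% on the other autosomes. Because the chromosomes were chosen for sparse LY19Y646F islands, nothing is read from the low share itself.

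**Figure D1:**
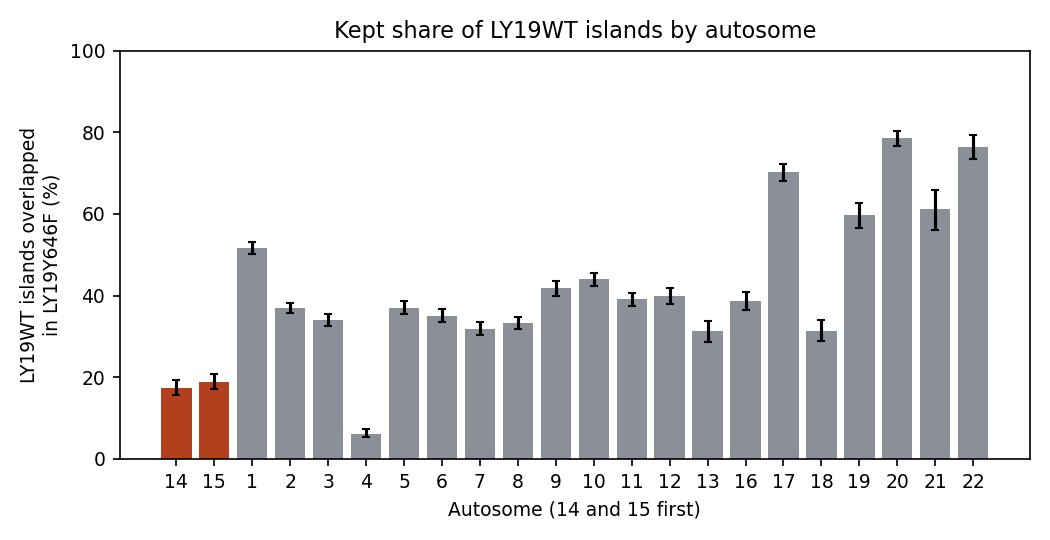
Share of LY19WT islands (%) overlapped by a LY19Y646F island by at least 1 bp on each autosome, with chromosomes 14 and 15 first; error bars are exact binomial 95% intervals, which cover counting error only. Chromosomes 14 and 15 stand at 17.4% and 18.9%, above chromosome 4 at 6.19% and below every other autosome.

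Seen from the LY19Y646F list, most islands lay where LY19WT also had one. Of 1115 LY19Y646F islands, 757 (67.9%, exact binomial 95% interval 65.1% to 70.6%) overlapped a LY19WT island. This share was 56.5% over all 47432 LY19Y646F islands and 56.3% on the other autosomes. The LY19Y646F share was 65.1% on chromosome 14 and 70.0% on chromosome 15. Of the 757 overlapping islands, 426 (56.3%) lay wholly inside a LY19WT island, against 44.6% on the other autosomes.

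Width separated kept from unmatched islands. Kept islands had a median width of 8.2 kb, with quartiles of 4.8 and 17.0 kb, and unmatched islands 5.2 kb, with quartiles of 3.4 and 9.4 kb. The ratio of the medians was 1.58 on these chromosomes and 1.52 on the other autosomes. Kept islands made up 18.2% of the islands and 28.0% of the LY19WT length. A wider island offers more bases to an overlap of 1 bp, so part of this difference follows from the rule. When at least 50% of the LY19WT island had to be covered, the medians were 5.8 kb for 343 kept islands and 5.6 kb for 3139 others, close to equal. That rule works against wide islands, because LY19Y646F islands here had a median width of 5.0 kb and none exceeded 21.2 kb. Neither rule is neutral to width, so how much of the difference follows from the 1 bp rule was not tested.

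The kept share grew with every step of width. Below 4 kb, 96 of 1014 islands were kept (9.47%). From 4 to 8 kb the share was 16.8% of 1237 islands, from 8 to 16 kb it was 20.6% of 759, and from 16 to 32 kb it was 32.7% of 349. At 32 kb and wider, 60 of 123 islands were kept (48.8%, exact binomial 95% interval 39.7% to 58.0%). The same classes on the other autosomes gave 28.6%, 36.4%, 47.4%, 61.4% and 76.7%. From the narrowest class to the widest, the share was thus 0.331, 0.462, 0.434, 0.532 and 0.636 times that of the other autosomes. An overlap of at least 1 bp grows easier with width on all autosomes. How far this alone raises the ratio was not tested.

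**Figure D2:**
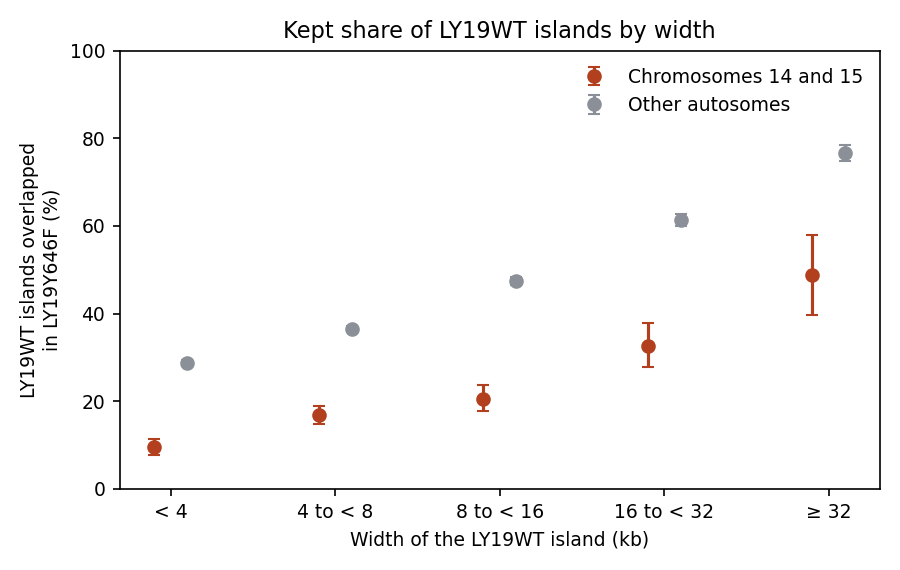
Share of LY19WT islands (%) overlapped in LY19Y646F, by width of the LY19WT island in kb, for chromosomes 14 and 15 and for the other autosomes; points are shares and bars exact binomial 95% intervals. On chromosomes 14 and 15 the share goes from 9.47% below 4 kb to 48.8% at 32 kb and wider, and stays below the other autosomes in all 5 classes.

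Wide islands were kept as fragments. The median kept island was covered over 53.3% of its length, with quartiles of 31.5% and 79.8%, against 83.1% on the other autosomes, with quartiles of 53.1% and 100%. Below 4 kb the median covered share of a kept island was 94.6%, and at 32 kb and wider it was 20.2%, against 55.1% in the widest class of the other autosomes. Only 85 of the 634 kept islands (13.4%) were covered whole, against 30.2% on the other autosomes. In 132 kept islands (20.8%) the covered part was split among 2 or more LY19Y646F islands, up to 8 in 1 island, and the share was 25.9% on the other autosomes, with up to 18. Of 274 LY19Y646F islands that lay wholly inside a LY19WT island of 16 kb or wider, 165 (60.2%) had their centre in the middle 50% of its width, and 59.9% did on the other autosomes. Islands that lie wholly inside cannot have their centre near an edge. A share above 50% therefore does not by itself show central placement.

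**Figure D3:**
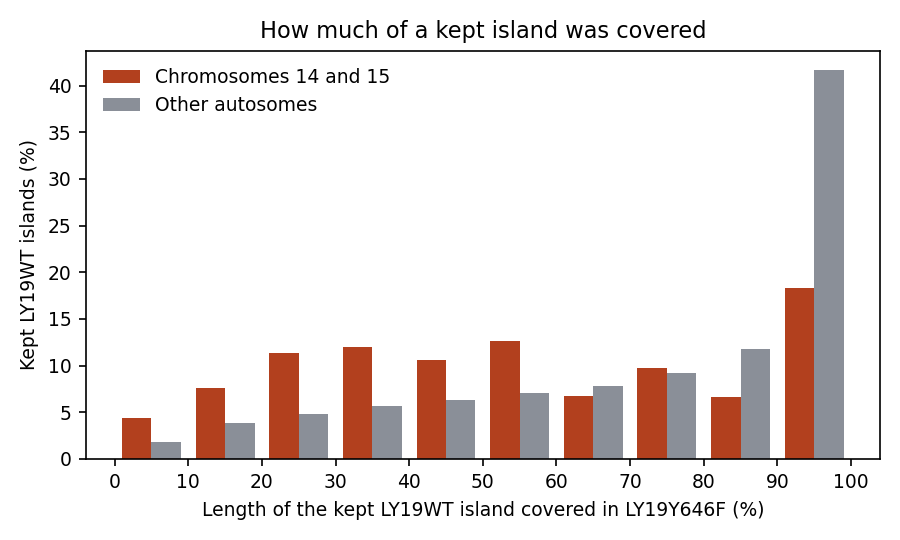
Kept LY19WT islands (% of kept islands) by the share of their length covered in LY19Y646F (%), in steps of 10, for chromosomes 14 and 15 and for the other autosomes. On chromosomes 14 and 15 the last step, from 90% to 100%, holds 18.3% of kept islands, against 41.6% on the other autosomes.

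The widest kept islands show this most plainly. On chromosome 15 the widest ran from 32009601 to 32159800, 150.2 kb with 12507 ChIP and 1826 input reads, and 2 LY19Y646F islands covered 6.79% of it. Its input density, 12.2 reads per kb, was higher than that of the next 4. The next, from 60102201 to 60250800 and 148.6 kb wide, was covered to 2.42% by a single LY19Y646F island of 3.6 kb with 140 ChIP and 29 input reads. The island from 81629201 to 81741800, 112.6 kb wide, was covered to 6.04%. The island from 74078201 to 74183800 differed from these. It was 105.6 kb wide, 7 LY19Y646F islands fell on it, and they covered 42.8%. The fifth, from 79478201 to 79565400, was covered to 31.9% by 4 islands.

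On chromosome 14 the widest kept island ran from 23836201 to 23931000, 94.8 kb with 88.5 ChIP reads per kb. A single LY19Y646F island of 4.4 kb, with 197 ChIP and 27 input reads, covered 4.64% of it. The islands from 95409801 to 95488400 and from 94926601 to 95002600 were covered to 26.2% and 28.2%. The islands from 94690801 to 94757200 and from 78750201 to 78812000 were covered to 4.82% and 7.44%. Of these 10 islands, 5 on each chromosome, none was covered over 50% of its length.

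Islands of similar width and density were also found unmatched. On chromosome 14 the island from 100260201 to 100350000 was 89.8 kb wide with 103 ChIP and 8.55 input reads per kb, and the nearest LY19Y646F island lay 3.4 kb away. The island from 63723401 to 63780600, 57.2 kb wide with 64.4 ChIP reads per kb, had none within 1044 kb. On chromosome 15 the island from 60424201 to 60529000 was 104.8 kb wide with 88.3 ChIP reads per kb, and the nearest LY19Y646F island was 286.8 kb away. The island from 39571401 to 39640200, 68.8 kb wide, had none within 537.2 kb. Wide and dense LY19WT islands were thus found in both classes.

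LY19WT ChIP density was higher over kept islands than over unmatched ones. The median was 64.9 reads per kb in kept islands, with quartiles of 55.0 and 75.4, and 57.0 in unmatched islands, with quartiles of 51.4 and 64.0. The ratio of the medians was 1.14, and 1.12 on the other autosomes. The distributions overlapped widely. Islands were then classed by the quartiles of ChIP density on the other autosomes. The kept share was 10.8%, 13.1% and 13.6% in the 3 lower classes and 34.2% of 909 islands in the densest class, above 65.5 reads per kb. On the other autosomes the shares climbed step by step, from 25.6% through 32.8% and 41.6% to 62.7%.

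Density and width each went with the kept share within coarse classes of the other, cut at 16 kb and 65.5 reads per kb. Neither was held fixed within a class. Among islands of 16 kb or wider, 150 of 342 in the densest class were kept (43.9%), against 24 of 130 below it (18.5%). Among narrower islands the shares were 161 of 567 (28.4%) and 299 of 2443 (12.2%). The narrowest class ran the other way. Below 4 kb, kept islands had a median of 52.6 ChIP reads per kb and unmatched islands 54.3, and the authors' fold over input was 1.84 and 2.16. Input density was 9.33 reads per kb in the kept and 8.20 in the unmatched islands of this class. On the other autosomes, kept islands under 4 kb had 54.7 ChIP reads per kb and unmatched islands 53.0. Their input density was 8.67 and 8.16 reads per kb, and their fold 2.06 and 2.14.

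Input of LY19WT was slightly higher over kept islands in every class. Over all widths the median was 8.74 reads per kb in kept and 8.24 in unmatched islands, a ratio of 1.06, and 1.05 on the other autosomes. At 32 kb and wider the medians were 8.55 and 8.43. Input over 1.5 times the median of the other autosomes was found in 8 of 634 kept islands (1.26%) and 27 of 2848 unmatched islands (0.948%), against 4.50% and 2.97% on the other autosomes.

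**Figure D4:**
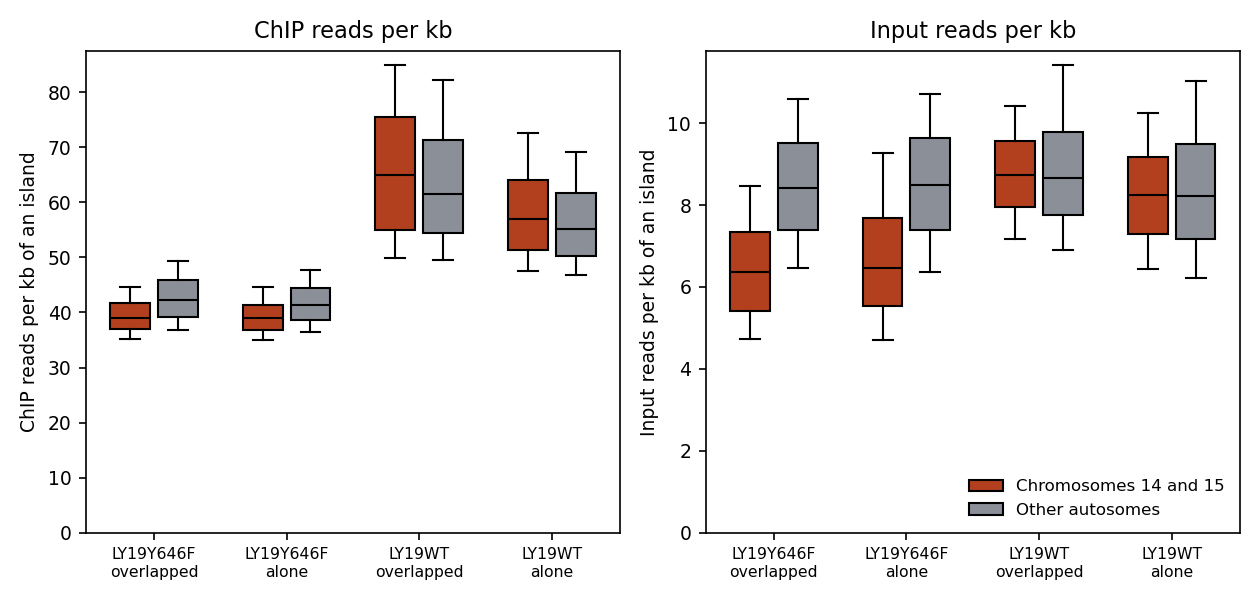
ChIP reads per kb (left) and input reads per kb (right) of islands in LY19Y646F and LY19WT, split into islands overlapped in the other line and islands alone, for chromosomes 14 and 15 and for the other autosomes. Boxes are quartiles with the median, whiskers the 10th and 90th percentiles; LY19Y646F input on chromosomes 14 and 15 has a median of 6.36 reads per kb in overlapped islands, against 8.43 on the other autosomes.

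In LY19Y646F, input over called islands of these chromosomes was low, and their ChIP density was nearly that of called islands elsewhere. Median input was 6.39 reads per kb on chromosomes 14 and 15 and 8.46 on the other autosomes, a ratio of 0.755. Median ChIP density was 39.0 and 41.8 reads per kb, a ratio of 0.933. Only stretches that passed the island call enter, so weaker ChIP signal cannot show in these values or in the fold below. LY19WT had medians of 8.33 and 8.42 input reads per kb and of 57.9 and 57.3 ChIP reads per kb at its own islands, ratios of 0.990 and 1.01. Low LY19Y646F input was not limited to chromosomes 14 and 15. As a ratio to the median of the other autosomes, it was 0.8231 on chromosome 4, where the kept share was lowest. The ratio was 0.7633 on chromosome 14, 0.7485 on chromosome 15 and at least 0.9497 on every remaining autosome. Fewer copies of chromosomes 14 and 15 and other sources of low input in LY19Y646F cannot be told apart here. Their part in the low kept share was not tested. Within LY19Y646F, islands that overlapped LY19WT and islands that did not were alike. Their median ChIP density was 39.1 and 38.9 reads per kb, their input 6.36 and 6.45, and their width 5.2 and 5.0 kb. The authors' fold was 2.34 and 2.30, and 1.92 and 1.85 on the other autosomes, where input was higher.

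At kept islands, overlapping islands of both lines could be set side by side. Each density was taken over the line's own island, so the paired intervals differ. Their median widths were 5.4 kb in LY19Y646F and 8.2 kb in LY19WT. Each of the 634 kept islands was paired with the LY19Y646F island of largest overlap, 591 distinct islands in all. The paired LY19Y646F islands had a median of 38.7 ChIP reads per kb, with quartiles of 36.7 and 41.2, and the LY19WT islands 64.9. The median ratio of LY19Y646F to LY19WT was 0.600, and 0.689 on the other autosomes. Raw LY19Y646F density was lower in 99.7% of these pairs and in 96.4% of those on the other autosomes. For input the median ratio was 0.734, against 0.966 on the other autosomes, and LY19Y646F was lower in 88.5% of pairs, against 55.4%. In the 221 pairs that overlapped by at least 50% of both islands, the ratios were 0.643 for ChIP and 0.727 for input, against 0.681 and 0.958. The fold ratio was then 1.02, against 0.824 on the other autosomes.

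Density of the called LY19Y646F islands was nearly flat across the range of LY19WT density. Only stretches that passed the island call enter here, so weaker LY19Y646F signal cannot show. How far this flattens the medians was not tested. Below the first quartile of LY19WT ChIP density over kept islands the medians were 38.3 reads per kb in LY19Y646F and 50.8 in LY19WT. Above the upper quartile they were 39.5 and 83.2. The other autosomes gave 42.2 against 50.4 below and 43.8 against 79.9 above their own quartiles. The 10th and 90th percentiles of LY19Y646F ChIP density on chromosomes 14 and 15 were 35.0 and 44.7 reads per kb, a narrow range. Those of LY19WT were 47.8 and 75.4. On the other autosomes the same percentiles were 36.6 and 48.8 in LY19Y646F, and 47.6 and 75.5 in LY19WT.

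**Figure D5:**
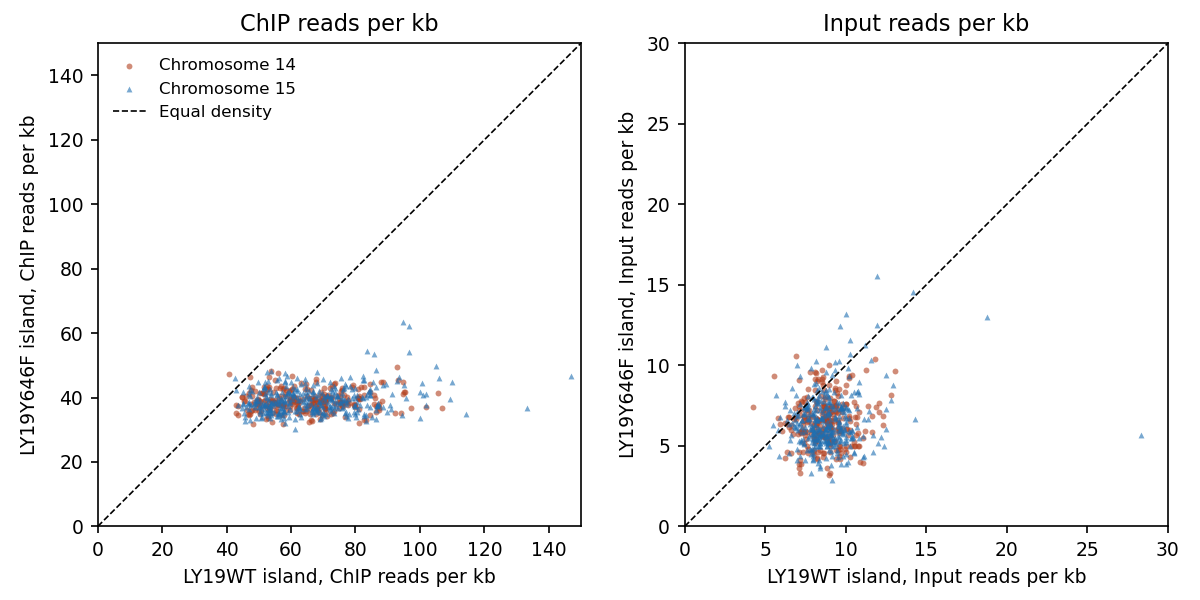
ChIP reads per kb (left) and input reads per kb (right) of each kept LY19WT island (x axis) and of the LY19Y646F island that overlaps it most (y axis), on chromosomes 14 and 15; the dashed line marks equal raw density, with no scaling for depth. Nearly all ChIP points lie below the line (99.7% of pairs, and 96.4% on the other autosomes). Medians of the called LY19Y646F islands stay between 38.3 and 39.5 across the 4 quartile classes of LY19WT density, and weaker LY19Y646F stretches do not enter.

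The LY19WT islands of highest ChIP density among the kept ones were mostly covered in part. On chromosome 14 they were led by the island from 99741401 to 99748800, with 107 ChIP reads per kb, covered to 13.5%. The island from 21526201 to 21538200, with 106 reads per kb, was covered to 63.3%. On chromosome 15 the leading island ran from 102458601 to 102501200 with 147 ChIP reads per kb, at a raised input of 14.2 reads per kb. It was covered to 51.2% by 4 LY19Y646F islands, and the one of largest overlap had 46.7 ChIP and 14.6 input reads per kb. The second, from 77991801 to 77992400, was only 0.6 kb wide and had 28.3 input reads per kb. The island from 74695801 to 74735000 had 114 ChIP reads per kb at an ordinary input of 8.34, and 12.8% of it was covered.

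The densest LY19Y646F islands lay mostly on chromosome 15. Of 1115 islands, 17 (1.525%) had over 50 ChIP reads per kb, against 6.98% of islands on the other autosomes. Of the 17, 14 were on chromosome 15, which held 633 of the 1115 islands. A LY19WT island was overlapped by 11 of the 17, and by 67.9% of all 1115. Some of the 17 were narrow, down to 1.2 kb with 77 ChIP reads. A group of 5 lay between 74360601 and 75589200, each wholly inside a LY19WT island. Their median was 54.4 ChIP and 9.17 input reads per kb. All 51 LY19Y646F islands with their centre from 74 to 76 Mb, these included, had a median input of 5.50. The island from 74360601 to 74373800 had 62.3 ChIP and 11.3 input reads per kb, and that from 75562401 to 75574800 had 63.5 and 10.7. Raised input went with this group of 5, and its part in their density was not tested. Input was not raised in all of the 17, and the lowest was 2.73 reads per kb.

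Kept islands were spread unevenly along both chromosomes. On chromosome 14, 6 of 377 LY19WT islands from 30 to 60 Mb were kept (1.59%), and 1 of 85 from 80 to 90 Mb. From 90 to 110 Mb, 144 of 482 were kept (29.9%), and from 20 to 30 Mb, 35 of 150 (23.3%). The bin with the most kept islands on chromosome 14 ran from 90 to 100 Mb, with 73 of 296 (24.7%), while the share was highest from 100 to 110 Mb, with 71 of 186 (38.2%). The bin with the fewest ran from 40 to 50 Mb, with 0 of 17, which allows a share of up to 17.6%. The sparse stretch from 30 to 60 Mb still held 40 LY19WT islands of 16 kb or wider, and 1 of them was kept. From 90 to 110 Mb, 30 of 58 such islands were kept.

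On chromosome 15 the richest bin ran from 70 to 80 Mb, with 123 of 339 islands kept (36.3%), and the poorest from 50 to 60 Mb, with 5 of 171 (2.92%). From 30 to 40 Mb, 14 of 244 were kept (5.74%). From 60 to 80 Mb, 70 of the 133 islands of 16 kb or wider were kept, against 7 of 66 from 30 to 60 Mb. LY19WT islands from 60 to 80 Mb were wider, with a median of 7.4 kb against 5.4 kb from 30 to 60 Mb, and denser, at 61.6 against 57.9 ChIP reads per kb.

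LY19Y646F input was set beside the share of islands kept in stretches rich and poor in kept islands. Relative to its median on the other autosomes, LY19Y646F input was 0.704 in the richest bin of chromosome 15 and 0.802 in the poorest. On chromosome 14 it was 0.764 from 90 to 110 Mb, 0.760 from 30 to 60 Mb and 0.714 from 80 to 90 Mb. The values from 30 to 60 Mb and from 80 to 90 Mb rest on 19 and 3 LY19Y646F islands, and input could be read only where a line had islands. LY19WT input in these 5 stretches lay between 0.957 and 1.00 times its median.

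Kept islands were often neighbours. After a kept island the next LY19WT island was also kept in 46.0% of 633 cases, and after an unmatched island in 12.0% of 2847. On the other autosomes the shares were 75.8% and 16.6%. The longest run of kept islands on chromosome 14 held 8 islands from 77289201 to 77412600, where LY19Y646F had 9 islands. On chromosome 15 it held 8 islands from 65373601 to 65677000, also with 9 in LY19Y646F. The longest run of unmatched islands was 142 islands on chromosome 14, from 55268601 to 60912800. LY19WT islands covered 21.8% of these 5.64 Mb, at a median of 56.5 ChIP and 8.19 input reads per kb, and LY19Y646F had 1 island of 4.4 kb there. On chromosome 15 the longest ran over 117 islands from 53098401 to 55452400, with 40.8% covered in LY19WT and no LY19Y646F island.

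The median distance from an unmatched LY19WT island to the nearest LY19Y646F island was 230.4 kb on chromosome 14, 112 kb on chromosome 15 and 78.2 kb on the other autosomes. Fewer LY19Y646F islands lengthen this distance by themselves, and the chromosomes were picked for that. Of the unmatched islands, 383 of 2848 (13.4%) were within 10 kb, against 19.4% on the other autosomes. At the edge of the rule, 26 islands were kept by under 1 kb of overlap, with a median width of 4.1 kb and 54.7 ChIP reads per kb. Just outside it, 35 unmatched islands lay under 1 kb from a LY19Y646F island, with medians of 5.0 kb and 58.2 ChIP reads per kb. The smallest overlap was 200 bp, in 4 islands, and 7 unmatched islands adjoined a LY19Y646F island with no gap.

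LY19Y646F also had 358 islands on these chromosomes with no LY19WT partner. They were closer to LY19WT islands than on the other autosomes, at a median of 23.5 kb against 52.6 kb. The widest on chromosome 14 ran from 75824801 to 75846000, 21.2 kb with 810 ChIP and 131 input reads, and was the widest LY19Y646F island on either chromosome. The second widest without a LY19WT partner there, from 75786001 to 75800200, measured 14.2 kb. On chromosome 15 the widest ran from 66884601 to 66901400, 16.8 kb with 626 ChIP and 83 input reads, 94.8 kb from the nearest LY19WT island. In the bin of chromosome 14 that starts at 10 Mb, LY19WT had 0 islands, while 10 were called in LY19Y646F. Whether reads of this bin map to 1 place only was not tested. Input there was 12.0 reads per kb, 1.42 times the median of the other autosomes, and its part in these calls was not tested.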

How the data were processed

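Per the labels, SICER islands of each line came from its 3 merged H3K27me3 ChIP replicates, set against the input of that line with an FDR limit of 0.001. The submitters' processing notes name genome build hg19, SICER, bedtools, SAMtools 1.3.1 and Bowtie2 2.2.9. Per the file headers, each deposited island has raw ChIP and input read counts, a fold (a ratio of ChIP to scaled input), a p-value and an FDR, and these are the authors' values. Merging left values without a replicate error, so neither lines nor island classes were tested against each other. The members, gene lists and width classes were chosen with earlier results of these data known.

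Starts were read as 0-based, and positions are given 1-based. Overlap was computed in Python 3.11.15 with numpy 2.4.6, pandas 2.3.3 and scipy 1.17.1, checked against bedtools 2.31.1 and tested on simulated lists. Islands were assigned to bins of 10 Mb by their centre. Islands were named by position as the 5 widest and 5 densest kept, the 5 widest unmatched and the 3 widest LY19Y646F islands alone on each chromosome, with a few given as ranges. The dense LY19Y646F group, the runs and the stretches were chosen after their values were seen. Of a preset gene list, 3 genes are named by chromosome only. A share of 0 allows up to 3 counts. Alternatives were stricter FDR limits, other overlaps, joined islands, a cut LY19WT list, each chromosome alone, the antigen receptor loci kept in and, added after seeing the data, islands of high input left out.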

Additional observations from a re-analysis of the deposited data

How the results depend on the processing

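The results come from 1 merged list per line, so leaving out a replicate could not be run. No paired analysis was possible because the replicates of a line were merged before deposit. Median width, ChIP density and input density remained higher in kept than in unmatched islands under all 10 alternatives. The width medians were close to equal where 50% coverage was demanded. Demanding 50% of the island lowered the kept share to 9.85% and the LY19Y646F share to 60.1%, against 31.55% and 47.07% on the other autosomes. Kept medians were 5.8 kb, 59.9 ChIP and 8.89 input reads per kb, and unmatched medians 5.6 kb, 57.7 and 8.28. Demanding 50% of both gave 6.35%, 19.8%, 6.0 kb, 59.4 and 8.91. The shares on the other autosomes were then 15.0% and 17.6%, and the unmatched medians here 5.6 kb, 57.8 and 8.29. Cutting the LY19WT list by p-value until it covered as much as LY19Y646F gave 27.0%, 47.2%, 15.2 kb, 72.8 and 8.45, and the shares on the other autosomes were then 54.8% and 38.4%. When islands up to 5 kb apart were joined, the kept share was 23.9%, against 45.2% on the other autosomes. Kept medians were then 19.1 kb, 58.7 ChIP and 7.86 input reads per kb. The width includes gaps without counted reads. An FDR limit of 1e-10 moved the kept medians to 9.4 kb, 66.8 and 8.59. The remaining 32 values stayed within the binomial interval of the main value. Narrow LY19Y646F islands near the calling limit bound what can be seen, and an unmatched island can still hold the mark below it.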
